A study of Mus musculus with 11 samples.

Results

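A set of 9 genes that control the pace of glycolysis was followed through the livers of mice forced to express Notch intracellular domains: Pfkfb4, its relatives Pfkfb1, Pfkfb2 and Pfkfb3, the liver phosphofructokinase gene Pfkl, Hk2, Pklr, Pdk4 and the glucose transporter gene Slc2a1. The 9 genes were carried by 14 probes of the 56605 on the array (22911 genes were named on it in all, 16637 of them on probes kept for the tests), found through the RefSeq accession that the array design gives each probe. Pfkfb4 was chosen by its level across these same 11 arrays, so its values are given as a description with no test, whereas the other 8 genes were taken for their function. The question was how far the pattern of Pfkfb4 is met elsewhere in the same enzyme family and pathway.

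Liver RNA came from 4 groups of male C57Bl6/J mice, injected intraperitoneally at 8 weeks of age with adeno-associated virus 8 (AAV8) and sampled after 5 days. The GFP group (3 arrays) received 6e+11 vector genomes of AAV8-GFP alone. The NICD1 group (3 arrays) received 3e+11 of AAV8-NICD1, which carries the intracellular domain of Notch1, together with 3e+11 of AAV8-GFP, and the NICD2 group (3 arrays) received AAV8-NICD2, for the Notch2 domain, in the same way. The NICD1&2 group (2 arrays) received both NICD vectors at 3e+11 and was given no AAV8-GFP, so that the absence of the GFP vector and the presence of both domains cannot be told apart in that group. All vectors used the CMV promoter, which is not restricted to hepatocytes. Each group was spread over both slides. Nothing in the labels ties an array to a named animal, so p-values describe the spread between these arrays.

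On each array 56.97% to 62.02% of the spots were well above background, and the number of arrays limits the precision. A level is the deposited log2 value, scaled so that the 75th percentile of each array is 0, and a difference of 1 is a doubling. In all 4 groups 6 of 6 hepatocyte markers, among them Alb, were well above background on every array, and their summed level lay between 11.7 and 12.2. Fewer cells of a type and less RNA per cell cannot be told apart in whole liver.

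The enzymes encoded by the Pfkfb genes make and break fructose-2,6-bisphosphate, the strongest known activator of phosphofructokinase-1, and so steer flux between glycolysis and gluconeogenesis. Pfkfb1 is the classical liver form, whose kinase activity is switched off by glucagon signalling. Pfkfb3 and Pfkfb4 are the forms known to be induced by hypoxia and in tumours. Hexokinase, phosphofructokinase-1 and pyruvate kinase are the irreversible steps of the pathway, and pyruvate dehydrogenase kinases hold back the entry of pyruvate into the mitochondrion. In the nucleus, NICD acts by joining the DNA-binding protein RBPJ, which prefers the letters GTGGGAA.

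The stretch of 250 bases before a RefSeq start of Pfkfb4 is shown because this gene carries the main pattern. This start lies inside the gene, whose listed span begins at base 108988272, and the bases before that position were not searched. The stretch of Pdk4 is shown because it was the only member promoter searched to hold GTGGGAA. Those of Wfdc3 and Pnliprp1 are shown because these genes, described further on, lay near Pfkfb4 across the arrays and were those among the 10 nearest to hold these letters. All were taken from RefSeq on build GRCm38.p6 and run 5′ to 3′ on the strand of the gene, with capitals marking, on either strand, the RBPJ letters given above or the core letters ACGTG, and likewise the variant core GCGTG, at which hypoxia-inducible factors bind.
Pfkfb4, chr9:108991652-108991901, plus strand: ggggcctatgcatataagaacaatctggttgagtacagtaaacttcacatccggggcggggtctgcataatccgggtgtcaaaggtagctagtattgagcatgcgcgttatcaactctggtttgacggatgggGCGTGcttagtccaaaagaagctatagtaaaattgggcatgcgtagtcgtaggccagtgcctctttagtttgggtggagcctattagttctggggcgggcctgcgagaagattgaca
Pdk4, chr6:5496279-5496528, minus strand: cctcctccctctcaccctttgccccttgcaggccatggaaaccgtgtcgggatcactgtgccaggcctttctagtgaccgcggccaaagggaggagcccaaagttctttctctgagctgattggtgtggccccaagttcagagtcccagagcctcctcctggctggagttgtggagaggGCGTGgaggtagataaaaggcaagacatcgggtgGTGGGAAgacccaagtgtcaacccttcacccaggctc
Wfdc3, chr2:164743268-164743517, minus strand: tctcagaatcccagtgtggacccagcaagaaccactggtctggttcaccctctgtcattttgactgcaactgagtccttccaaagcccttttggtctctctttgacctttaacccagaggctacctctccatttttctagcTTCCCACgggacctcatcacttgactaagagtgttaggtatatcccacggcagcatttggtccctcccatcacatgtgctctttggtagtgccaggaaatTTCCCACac
Pnliprp1, chr19:58728637-58728886, plus strand: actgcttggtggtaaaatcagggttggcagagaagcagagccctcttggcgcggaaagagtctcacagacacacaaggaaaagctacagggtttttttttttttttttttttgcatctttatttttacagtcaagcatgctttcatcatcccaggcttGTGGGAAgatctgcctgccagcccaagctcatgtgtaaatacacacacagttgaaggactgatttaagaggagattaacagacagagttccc
All 9 members were matched, with 16 promoters. GTGGGAA stood in 1 of these 16, that of Pdk4, and in 5.42% of the 32851 mouse promoters of the same length. Of the 10 nearest genes 9 were matched, with 11 promoters, and 2 of the 11 held it. The Pfkfb4 stretch held GCGTG, 112 bases upstream of this internal start, a motif present in 28.2% of all promoters. It did not hold the A-containing core (16.6%), nor the E-box letters CACGTG (6.02%), which overlap that core. The E-box letters were found in a promoter of Pfkfb2 and in a promoter of Pfkfb3. These are matches of letters in a short window and say nothing about binding.

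Pfkfb4 was higher on every array of mice given an NICD vector than on any GFP array. Its level was -2.51, -2.97 and -2.61 on the GFP arrays, and -0.83, -0.32 and -1.06 on the NICD1 arrays. The NICD2 arrays stood at 0.044, 0.14 and 0.23, and the NICD1&2 arrays at 0.24 and 0.30. No 2 groups overlapped, and the probe was well above background on all 11 arrays. Relative to the mean of the GFP arrays, the signal was 3.12 to 5.20 times as high on the NICD1 arrays, 6.69 to 7.61 times on the NICD2 arrays and 7.66 to 8.00 times on the NICD1&2 arrays.

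As group means, Pfkfb4 was at -2.70 ± 0.24 (SD, n = 3) with GFP, -0.73 ± 0.38 (n = 3) with NICD1, 0.14 ± 0.093 (n = 3) with NICD2 and 0.27 ± 0.044 (n = 2) with NICD1&2. The differences from GFP were 1.96, 2.84 and 2.97 on the log2 scale (SE 0.19, 0.19 and 0.21), or 3.90-fold, 7.14-fold and 7.83-fold. These 3 differences share the GFP arrays. NICD1 lay 0.87 below NICD2. NICD1&2 lay 1.01 above NICD1, and 0.13 above NICD2. The differences from GFP were close on the 2 slides, at 1.91 and 1.93 with NICD1, 2.83 and 2.84 with NICD2, and 2.98 and 2.92 with NICD1&2. Background correction with normexp and an offset of 50, followed by quantile normalization, lowered them to 0.97, 1.56 and 1.69. The second Pfkfb4 probe was well above background on 0 of 11 arrays, at -6.89 to -5.63, and has no measured change.

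**Figure D1:**
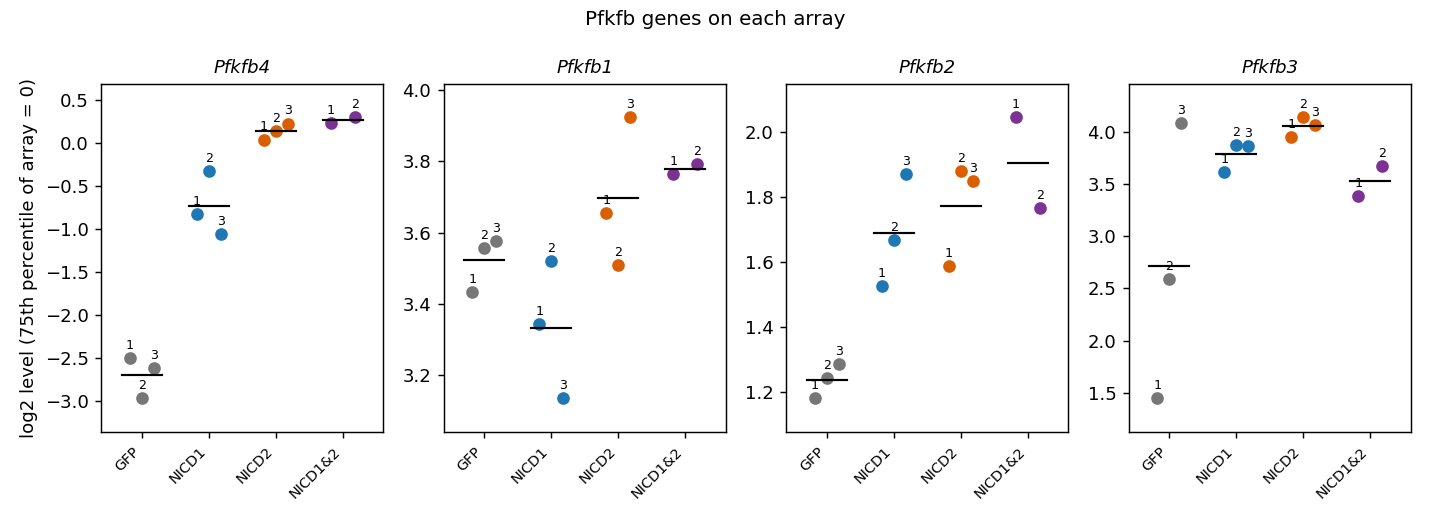
Level of the 4 Pfkfb genes (log2, 75th percentile of the array at 0) on each array by group, with the replicate number beside each point and a bar at the group mean, on a separate vertical scale for each gene. The Pfkfb4 means run from -2.70 with GFP to 0.27 with NICD1&2 with no overlap of groups, Pfkfb2 shows a smaller step, and for Pfkfb3 the GFP arrays themselves run from 1.45 to 4.09.

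None of the other 8 genes was called at an adjusted p under 0.05 (limma, Benjamini-Hochberg over 36060 probes) in any of the 7 comparisons made. The background for these counts was low: of all probes, 0.00832% were called for NICD1 against GFP, 0.0527% for NICD2, 0.0998% for NICD1&2, 0.00277% for NICD1 against NICD2, 0.0139% for NICD1&2 against NICD1, 0.00277% for NICD1&2 against NICD2 and 0% for the interaction. At an unadjusted p under 0.05, 2, 4 and 1 of the 8 passed for NICD1, NICD2 and NICD1&2 against GFP, beside 5.48%, 6.81% and 14.8% of all probes. By the wider definition that the study applied to its arrays, an unadjusted P under 0.15 with a change over 1.8-fold, Pfkfb3 alone passed with NICD1 and with NICD2, and 0 passed with NICD1&2. Of the second probes, that of Pfkfb3 also passed with all 3 NICD groups (2.14-fold with NICD1&2). That definition took in 2.22%, 1.98% and 6.23% of all probes, or 802, 715 and 2248 probes, and these counts depended on single arrays. For NICD1 they were 510 without GFP 1, 2022 without GFP 2 and 1358 without GFP 3, and for NICD2 1522 without GFP 2, 1167 without GFP 3 and 1278 without NICD2 2. For NICD1&2 they were 1376 without GFP 1 and 3700 without GFP 2. Between NICD1 and NICD2, 1 of the 8, Pfkfb1, had an unadjusted p under 0.05 and 0 met the definition, beside 3.74% and 1.26% of all probes.

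**Figure D2:**
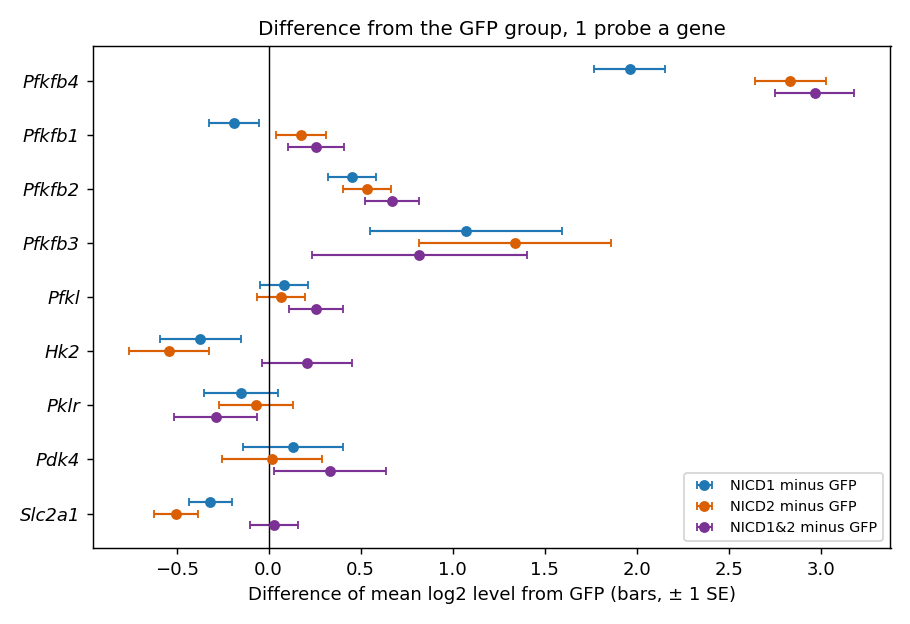
Difference of the group mean log2 level from GFP for each of the 9 genes, with bars of ± 1 SE from the fit over 11 arrays and colours for NICD1, NICD2 and NICD1&2. Pfkfb4 lies between 1.96 and 2.97, and the other genes lie between -0.54 and 1.34.

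Within the Pfkfb family, Pfkfb2, the form prominent in heart and kidney, came closest to Pfkfb4 in order though not in size. Its level was 1.18, 1.24 and 1.28 with GFP, 1.53, 1.67 and 1.87 with NICD1, 1.59, 1.88 and 1.85 with NICD2, and 2.05 and 1.77 with NICD1&2. All 8 NICD arrays thus lay above all 3 GFP arrays, which held for 1.83% of all probes. The differences from GFP were 0.45, 0.54 and 0.67 (SE 0.13, 0.13 and 0.15), with adjusted p of 0.77, 0.33 and 0.14. They kept their sign within each slide, between 0.31 and 0.83. The other 2 Pfkfb2 probes gave 0.13 to 0.51, with overlapping groups.

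Pfkfb3, the inducible form, gave large differences that rested on the control arrays. It stood at 1.45, 2.59 and 4.09 on the GFP arrays, against 3.61, 3.87 and 3.87 with NICD1, 3.95, 4.14 and 4.06 with NICD2, and 3.38 and 3.67 with NICD1&2. GFP arrays 1 and 2 were low, while GFP array 3 was above 7 of the 8 NICD arrays. The differences from GFP were 1.07, 1.34 and 0.82 (SE 0.52, 0.52 and 0.59; adjusted p 0.90, 0.68 and 0.50). Within slide 1, which holds GFP 1 and GFP 2, they were 1.59, 2.02 and 1.36, and within slide 2, which holds GFP 3, they were -0.22, -0.026 and -0.41. With slide as a block they were 0.84, 1.34 and 0.70. Leaving out GFP 1 lowered them to 0.44, 0.71 and 0.19, and leaving out GFP 3 raised them to 1.76, 2.03 and 1.51, still not called (adjusted p 0.41, 0.12 and 0.17). The second Pfkfb3 probe behaved alike, with GFP arrays at -3.91, -2.43 and -1.48 and all NICD arrays between -1.78 and -1.07. Among the hypoxia and fasting genes named further on, GFP 3 had the highest level of the GFP arrays for Irs2, Ddit4 and P4ha1. It had the lowest for Acot1, Cyp4a10 and Cyp4a14. These genes were named for meeting the study's definition, which Cyp4a10, Cyp4a14 and Irs2 did not meet without GFP 3, so an extreme GFP 3 is partly built into that choice. For Pdk4, which rises with fasting, GFP 3 lay between the others (-0.60, -1.35 and -1.16 on GFP 1 to 3). Whether any of these go with the Pfkfb3 values was not tested.

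Pfkfb1, the liver form, moved little. It ranged from 3.43 to 3.58 with GFP, 3.14 to 3.52 with NICD1, 3.51 to 3.92 with NICD2 and 3.76 to 3.79 with NICD1&2. The differences from GFP were -0.19, 0.17 and 0.26 (SE 0.14, 0.14 and 0.15; adjusted p 0.91, 0.90 and 0.43). Leaving out 1 array gave -0.28 to -0.091, 0.060 to 0.27 and 0.21 to 0.28. The 95% interval of the NICD2 difference, -0.13 to 0.48, leaves out any change of the size seen for Pfkfb4. The NICD1 level was 0.36 below the NICD2 level (unadjusted p = 0.025, adjusted p = 0.999998, limma), and its second probe differed by 0.30 in the same direction.

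Slc2a1 encodes GLUT1, a glucose transporter that is sparse in mature hepatocytes. It was at 2.32, 2.34 and 2.43 with GFP, 2.18, 1.86 and 2.11 with NICD1, 1.74, 2.04 and 1.81 with NICD2, and 2.42 and 2.37 with NICD1&2. The single-domain arrays all lay below the GFP arrays, which 5.44% of probes showed for NICD1 and 5.66% for NICD2, whereas the NICD1&2 arrays lay among them. The differences from GFP were -0.32 and -0.50 with the single domains (SE 0.12; unadjusted p 0.025 and 0.0021, adjusted p 0.88 and 0.30) and 0.031 (SE 0.13) with both. Hk2, the inducible hexokinase, showed a like arrangement. Its level ran from -3.10 to -2.61 with GFP, -3.55 to -2.73 with NICD1, -3.56 to -3.20 with NICD2 and -2.66 to -2.50 with NICD1&2, and the differences from GFP were -0.37, -0.54 and 0.21 (adjusted p 0.91, 0.69 and 0.67). Single arrays moved these Hk2 values: the NICD1 difference was -0.18 without NICD1 2 and -0.59 without NICD1 3, and the NICD1&2 difference was 0.058 without GFP 2. With normexp and quantile normalization they were -0.091, -0.13 and 0.022.

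**Figure D3:**
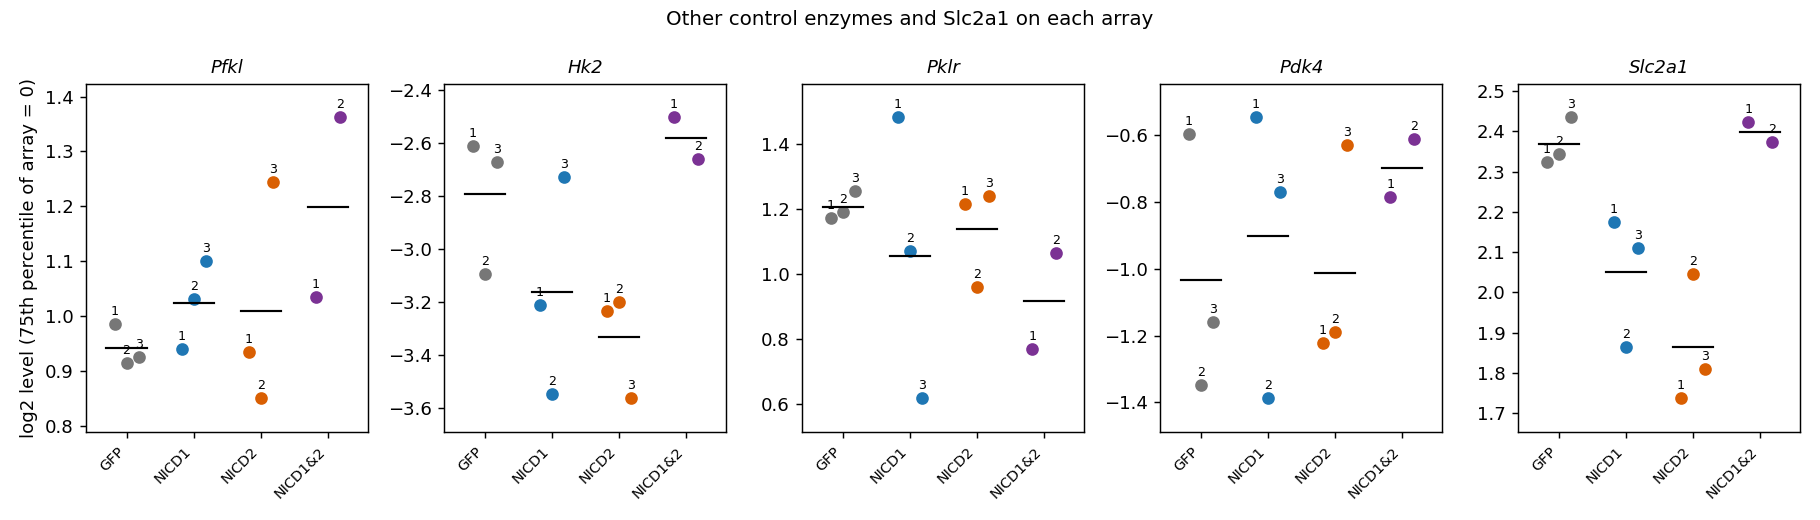
Level of Pfkl, Hk2, Pklr, Pdk4 and Slc2a1 (log2, 75th percentile of the array at 0) on each array by group, with the replicate number beside each point and a bar at the group mean, on a separate vertical scale for each gene. For Slc2a1 the 6 arrays of the single domains lie below the GFP arrays and the 2 NICD1&2 arrays do not.

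The interaction asks whether the difference made by both domains departs from the sum of the 2 single differences on the log2 scale. It was 0.85 for Slc2a1 (95% interval 0.45 to 1.25; unadjusted p = 0.00095, adjusted p = 0.54) and 1.12 for Hk2 (0.38 to 1.86; adjusted p = 0.64). For Pfkfb3 it was -1.59 (-3.37 to 0.18; adjusted p = 0.71), and these were the 3 members that met the study's definition (the second Pfkfb3 probe did not), against 3.83% of all probes. For Slc2a1 the definition was barely met, and was no longer met without GFP 3 (0.82), NICD1 2 (0.76), NICD2 1 (0.79), NICD2 3 (0.83) or NICD1&2 1 (0.83), nor with quantile normalization (0.81). The Pfkfb3 value was -0.96 without GFP 1 and -2.28 without GFP 3, and the Hk2 value was 0.25 with normexp and quantile normalization. No probe on the array was called for the interaction in this limma fit, 2534 (7.03%) had an unadjusted p under 0.05, as did 2 of the 8 members, and 0 to 12 were called in the other fits. For Pfkfb4 the same quantity was -1.83, given as a description.

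The differences of the remaining enzymes were small. Pfkl was at 0.91 to 0.99 with GFP and 0.85 to 1.36 over the NICD arrays, with differences of 0.082, 0.068 and 0.26 (SE 0.13, 0.13 and 0.15). The median over all probes for NICD1&2 against GFP was itself 0.12, and 0.010 after quantile normalization. Pklr, the pyruvate kinase of liver and red cells and a target of glucose signalling, was at 1.17 to 1.26 with GFP and 0.62 to 1.48 with NICD1. It was at 0.96 to 1.24 with NICD2 and at 0.77 and 1.07 with NICD1&2, and its differences from GFP were -0.15, -0.068 and -0.29. The NICD1 difference was 0.30 within slide 1, -0.41 within slide 2 and 0.070 without NICD1 3. Pdk4, which rises with fasting, spanned -1.35 to -0.60 with GFP alone, and its differences were 0.13, 0.020 and 0.34. The adjusted p for these 3 genes lay between 0.41 and 0.998.

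The other genes of glycolysis and pyruvate handling reported here differed less than Pfkfb4. Of 34 genes 33 had a probe that was kept, and 0 of 33 were called against GFP with NICD1, NICD2 or NICD1&2 or between NICD1 and NICD2 (limma). At an unadjusted p under 0.05 there were 2, 1, 8 and 0 of the 33, beside 5.48%, 6.81%, 14.8% and 3.74% of all probes. In the 3 NICD groups the median difference was -0.021, 0.033 and 0.18, beside 0.015, 0.020 and 0.12 over all probes. Tigar, a phosphatase that removes the product of the Pfkfb kinases, differed by 0.25, 0.27 and 0.39 (adjusted p 0.91, 0.79 and 0.30), and Fbp1, the opposing enzyme of gluconeogenesis, by -0.046, 0.064 and 0.26. The other phosphofructokinase-1 genes gave 0.12, -0.038 and 0.10 for Pfkm and -0.0091, -0.27 and -0.57 for Pfkp. Tigar, Fbp1, Pfkm and Pfkp are named for their place beside the Pfkfb step and were chosen after their values were seen.

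**Figure D4:**
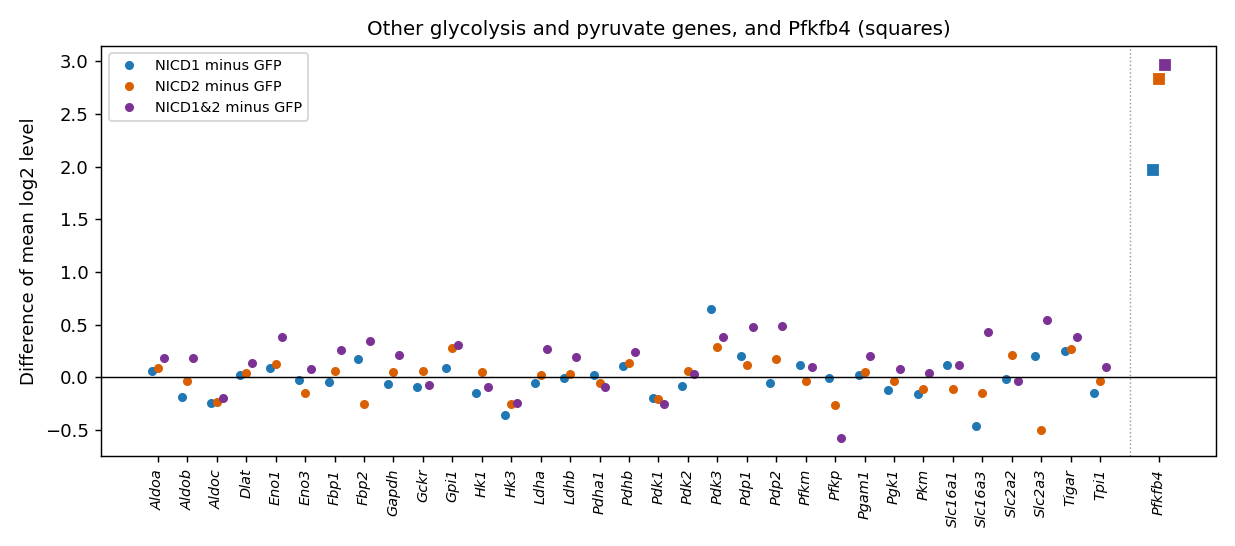
Difference of the group mean log2 level from GFP for 33 other glycolysis and pyruvate genes (circles, in alphabetical order) and for Pfkfb4 (squares), coloured by NICD1, NICD2 and NICD1&2. The circles, some of them (Pdk3 and Slc2a3 among them) from probes not well above background on every array, lie between -0.57 and 0.65, and the squares between 1.96 and 2.97.

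Genes that respond to low oxygen, fasting or dietary carbohydrate, 3 settings in which Pfkfb genes are regulated, were read in the same way, and 0 of their 15, 12 and 10 members were called. The study's definition was met by 1, 1 and 1 of the 15 hypoxia genes and by 2, 1 and 3 of the 12 fasting genes with NICD1, NICD2 and NICD1&2, beside 2.22%, 1.98% and 6.23% of all probes. In the hypoxia list the median differences were 0.092, 0.065 and 0.23. P4ha1, a collagen prolyl hydroxylase, was 0.90 higher with NICD1 (adjusted p = 0.64) and 0.74 higher without GFP 1. Ddit4, an inhibitor of mTORC1 signalling, differed by 1.17 and 1.23 with NICD2 and NICD1&2 (adjusted p 0.77 and 0.38), while its NICD2 arrays ran from 2.73 to 4.94, and the NICD2 difference was 0.70 without NICD2 1 and 1.81 without NICD2 3. Acot1, an acyl-CoA thioesterase of the fasting list, was 1.53 higher with NICD1&2 (adjusted p = 0.098), and of the genes named here it was the one to meet the definition whichever array was left out.

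The other fasting genes that met the definition did so only with certain arrays in the fit. Cyp4a10, a fatty acid hydroxylase gene, was at 4.38, 4.16 and 2.39 with GFP, and differed by 0.93 with NICD1 (SE 0.46, adjusted p 0.90) and by 1.16 with NICD1&2 (adjusted p 0.34). Without GFP 3 these became 0.30 and 0.54. Its relative Cyp4a14, at -0.95, -2.08 and -4.87 with GFP, was not well above background on GFP 3, so that its differences over all GFP arrays are not given. Without GFP 3 they were 0.76 and 0.73. Irs2, an insulin receptor substrate, was at 3.53, 3.37 and 4.56 with GFP and differed by -0.87 with NICD2 (adjusted p 0.71), or -0.50 without GFP 3. None of these values without GFP 3 met the definition, nor did Irs2 without NICD2 1 (-0.67) or NICD2 2 (-0.75), or Cyp4a10 without NICD1 3 (0.79 with NICD1) or NICD1&2 1 (0.83 with NICD1&2). The carbohydrate list, with Fasn and Scd1 among its members, had 0 genes that met the definition and medians of -0.023, 0.021 and -0.058.

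Genes whose levels ran closest to Pfkfb4 were found by the root mean square difference over the 11 arrays after each probe was centred on its own mean, a distance that a flat probe would place at 1.21. The 10 nearest named genes lay at 0.34 to 0.65: Slc10a6, a carrier of sulphated steroids, Defb1, an epithelial defensin, Dnase1, a secreted nuclease, Spp1, which encodes osteopontin, Sema5a, a semaphorin, Wfdc3, a secreted protein gene, Lpin1, a phosphatidate phosphatase, 1810064F22Rik, Pnliprp1, a pancreatic lipase relative, and Tuba8, a tubulin. The nearest members, Pfkfb3 and Pfkfb2, lay at 0.98, with 478 and 498 probes of 36060 nearer. No enzyme of the glycolysis list was among the 10.

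Defb1, well above background on every array, had means of -1.60 ± 0.19 with GFP, -0.59 ± 0.21 with NICD1, 0.44 ± 0.25 with NICD2 and 0.67 ± 0.23 with NICD1&2, an order shared with Pfkfb4. Slc10a6 was well above background on 0 of 6 GFP and NICD1 arrays, 3 of 3 NICD2 and 1 of 2 NICD1&2 arrays. Its signal with NICD2 was 3.12 times a GFP reference, and no fold is given for NICD1 or NICD1&2. The reference is a mean over the GFP arrays, taking on each array the higher of the lowest signal well above background there and the probe's own signal. That lowest signal is of any probe and can lie below the detection limit of the probe in question, so these ratios are not strict lower bounds. Wfdc3, well above background on 0 of 3 GFP arrays, stood at 2.98, 10.9 and 12.4 times its reference in the 3 NICD groups. Pnliprp1, also on 0 of 3, stood at 8.31 and 8.20 times with NICD2 and NICD1&2. It was well above background on 2 of 3 NICD1 arrays, and no fold is given there. These genes were picked for their likeness over the same arrays, and their differences are a description.

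**Figure D5:**
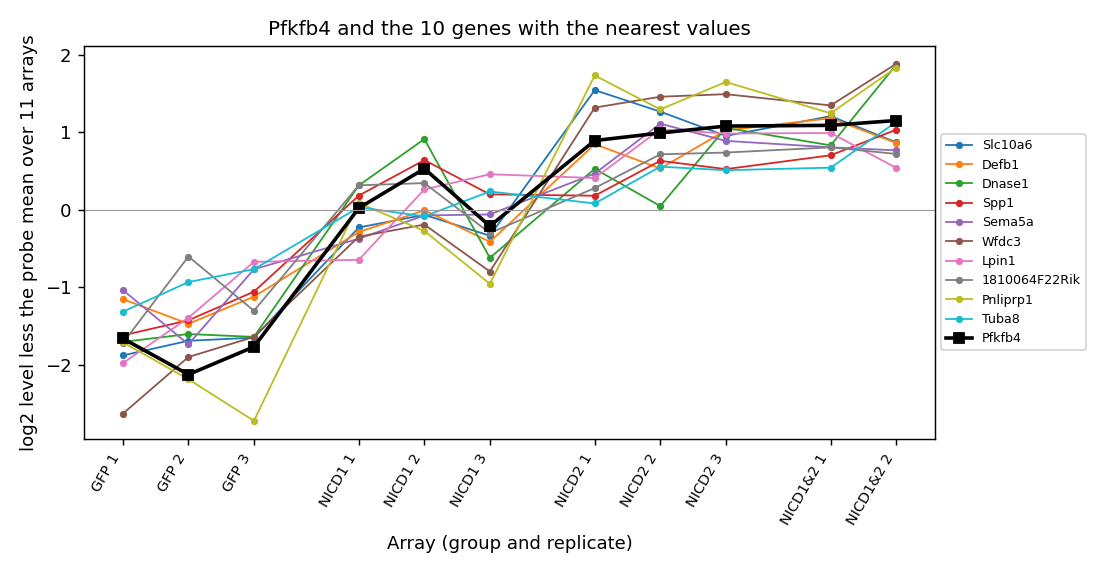
Level of Pfkfb4 (black squares) and the 10 named genes nearest to it on each of the 11 arrays, as log2 level less the probe's own mean, with arrays in order of group and replicate. All lines are lowest on the GFP arrays, and most lie higher on the NICD2 and NICD1&2 arrays than on the NICD1 arrays.

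Spp1, in that list, is also a marker of bile duct cells. The summed level of the 6 duct markers was 2.80 to 3.32 with GFP, 4.50 to 4.95 with NICD1, 4.50 to 4.94 with NICD2 and 5.03 to 5.33 with NICD1&2, with 4 of the 6 well above background on all GFP arrays and 5 of the 6 on all arrays of each NICD group. Spp1, which was picked for its likeness to Pfkfb4, carried most of that sum, at 2.64 to 3.20, 4.44 to 4.90, 4.44 to 4.89 and 4.96 to 5.29 by itself. The sum of the other 5 was -0.43 to -0.36 with GFP, -0.24 to 0.023 with NICD1, -0.086 to 0.34 with NICD2 and 0.28 to 0.59 with NICD1&2. The Spp1 differences, 1.71, 1.81 and 2.23, are a description. None of the other 5 was called, and Sox9 met the study's definition with NICD1&2, where 6.23% of all probes met it. Sox9 differed by 0.23, 0.84 and 1.16 (adjusted p 0.94, 0.58 and 0.20). Epcam differed by 0.69, 0.48 and 0.74, Krt7 by 0.44, 0.16 and 0.63, and Cftr by 0.41, 0.60 and 0.32. Krt19, a defining duct keratin, differed by 0.070, 0.089 and 0.29 (adjusted p 0.98, 0.99 and 0.57), the lowest of the 6 in each group. Epcam, Krt7, Cftr and Krt19 were named after their values were seen. All 6 markers were higher in each NICD group, as were 53.0%, 54.3% and 65.0% of all probes. The part of duct cells in the Pfkfb4 values was not tested. None of the markers of Kupffer cells, endothelium, stellate cells, lymphocytes, neutrophils or red cells was called. Of these, 2 met the study's definition, both lower with NICD1, where 2.22% of all probes met it. Marco, a macrophage scavenger receptor, differed by -0.89 (adjusted p 0.90). It stood at 3.81, 2.32 and 3.53 with GFP and at 2.21, 2.16 and 2.63 with NICD1, so that GFP 2 lay among the NICD1 arrays. Cd79a, a part of the B cell receptor, was well above background on 1 of 3 NICD1 arrays, so its difference is not given. Values without single arrays are not given for these 2 genes. The summed lymphocyte level was 1.56 to 1.83 with GFP and 1.43 to 1.48 with NICD1, and the neutrophil level 1.69 to 1.96 and 1.49 to 1.61, without overlap. The red cell level, 8.01 to 8.20 with GFP, was likewise lower with NICD1, at 7.84 to 8.00. Of single probes, 5.44% lay lower without overlap with NICD1. The stellate cell level was higher with NICD2 (6.64 to 6.85) than with GFP (6.54 to 6.63). The hepatocyte level was higher with NICD1&2 (12.10 to 12.18) than with GFP (11.95 to 12.02). The part of these cells in the members' values was not tested. The Notch1 and Notch2 probes differed from GFP by -0.37 to 0.29 (adjusted p 0.77 to 0.99), and the place of these probes relative to the vector inserts is not given in the sources used here, so they do not show how much of each domain was made.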

How the data were processed

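Cy3-labelled liver RNA was read on 11 Agilent arrays of 62976 spots with Feature Extraction 11.5.1.1. The deposited scanner files hold processed signal intensity and a background flag. The deposited log2 values, which the authors made from these signals with a 75th percentile shift, equalled log2 of the processed signal less a constant per array within 0.001 for over 99.5583% of probes on every array. Probes flagged well above background on at least 2 arrays were kept (36060 of 56605). A mean per group was fitted to all 11 arrays with limma 3.58.1 in R 4.3.3, with Benjamini-Hochberg adjustment over all probes kept. A gene was represented by its kept probe with the highest mean, and 13 of 14 member probes were kept. The fit was tested on simulated data. The members, gene lists and tests were chosen with earlier results of these data known. Genes of the lists were named where they met either call rule, at most 6 per list, with exceptions stated as chosen later. A further gene of the pathway list, beyond the 34 counted, is not reported here, so counts for that list do not cover all of it. Named through RefSeq were 24044 of the kept probes. The files use build mm9 and promoters GRCm38.p6. The RNA kit differs between methods and labels, and the array format named in the methods has fewer spots. Alternatives were other scalings, filters, fits, blocks, probes, the study's definition and leaving out each array. Within-slide differences, the duct marker sum without Spp1, leaving out arrays for list genes, and the settings for the interaction for NICD1&2 (Slc2a1, Hk2) and for Pfkfb1, Pfkl, Pklr and Pdk4 were added after seeing the data.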

Additional observations from a re-analysis of the deposited data

How the results depend on the processing

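The Pfkfb4 differences from GFP (1.96, 2.84 and 2.97 with NICD1, NICD2 and NICD1&2) stayed within 1 SD under every setting run but normexp with quantile normalization (0.97, 1.56 and 1.69), whose offset of 50 is added to every signal. Leaving out 1 array gave 1.76 to 2.12, 2.70 to 2.93 and 2.83 to 3.06. The second Pfkfb4 probe was not kept and gave no value. The other 8 members gave 0 calls in every comparison under all settings except the study's definition, which gave 1 (NICD1), 1 (NICD2) and 3 (interaction). For the pathway list normexp with quantile normalization gave 1 with NICD1&2, Pdk1, a pyruvate dehydrogenase kinase gene. Pfkfb3 reversed within slide 2, to -0.22, -0.026 and -0.41, where GFP 3 was the only control, and the cause was not tested. The Slc2a1 difference with NICD1&2, 0.031, reversed to -0.047 with the 75th percentile over probes detected on all arrays, -0.040 with quantile normalization, -0.054 with normexp and -0.061 within slide 2. Small differences of Pfkl, Pklr and Pdk4 also changed sign. Pfkl reversed within slide 1 with NICD1 (-0.0096) and NICD2 (-0.057), Pklr within slide 1 with NICD1 (0.30), and Pdk4 with NICD2 within slide 1 (-0.23) and with the 75th percentile over probes detected on all arrays (-0.0092). Leaving out 1 array gave -0.049 to 0.15 for Pfkl with NICD2, -0.36 to 0.070 and -0.12 to 0.020 for Pklr and -0.044 to 0.38 and -0.17 to 0.24 for Pdk4 with NICD1 and NICD2. With NICD1&2 the ranges were 0.093 to 0.42 for Pfkl, -0.44 to -0.14 for Pklr and 0.18 to 0.56 for Pdk4. The 3 Pfkfb1, 3 Pfkfb2 and 3 Hk2 differences from GFP and the Slc2a1 differences with NICD1 and NICD2 reversed in no setting run for them. Of the 10 genes nearest to Pfkfb4, 6 to 10 were shared when 1 array was left out (6 without GFP 2) and 7 to 10 under other scalings or filters.

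Counts over all probes moved more. Leaving out an array gave 2 to 4, 10 to 17 and 4 to 224 calls for NICD1, NICD2 and NICD1&2 against GFP (3, 19 and 36 with all arrays). A filter of all 11 arrays gave 3, 45 and 112, normexp with quantile normalization 7, 71 and 346, and the fit of the compared groups alone 0, 5 and 0. By the study's definition 1729 of 2248 probes were higher with NICD1&2, and 933 of 1969 after quantile normalization. For NICD1 these were 624 of 802 and 434 of 697. The replicate numbers did not pair the arrays, since only 6 of 15 same-number residual correlations were above 0.1 (median 0.037). With the replicate block the Pfkfb4 differences were 1.96, 2.84 and 2.94, the calls for NICD2 fell from 19 to 12, and no member was called.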
